A study of Oryctolagus cuniculus with 9 samples.

Results

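The genes described here are 6 genes grouped by name as matricellular and fibroblast matrix genes: POSTN (ENSOCUG00000011482), TNC (ENSOCUG00000011500), OLFML2B (ENSOCUG00000003594), FN1 (ENSOCUG00000010104), FBN1 (ENSOCUG00000003866) and PDGFRA (ENSOCUG00000000258). The name of the group does not state which cells made their RNA in these samples, which was not tested. The 6 genes were picked by symbol from the 14870 genes of the tables, with their differences between defects and healthy cartilage already known, so those differences are a description and carry no p-value here. The comparison of CLCS treated with untreated defects was tested.

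RNA was sequenced from cartilage of New Zealand white rabbits, 4 to 5 months old at selection, in 3 groups of 3 libraries each. All defects were drilled through the full thickness of the trochlear groove of the knee, and tissue was taken 12 weeks after surgery. In the CLCS group the defect had received a collagen-chondroitin sulphate (CLCS) scaffold, which went into the right knee, and in the untreated group the defect of the left knee had been left empty. The healthy group is labelled as control cartilage, and the scheme of the study draws it from the condyle, so that injury and site cannot be told apart in any comparison with it. By the study's methods each rabbit carried a scaffold defect in its right and an empty defect in its left knee, so that scaffold and knee side cannot be told apart, and libraries of these groups may come from the same animals. Replicate numbers 1 to 3 occur in each group, and the labels do not say whether a number marks a rabbit. P-values set a difference between groups against the spread between these libraries. The main fits treated the libraries as independent, although some may come from the same animal.

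Periostin (POSTN) and tenascin-C (TNC) are matricellular proteins: they are secreted into the matrix, bind integrins and other matrix proteins there, and influence cells more than they bear load. They are scarce in most resting adult tissues and are made in wounds, scars, tendon and periosteum. Fibronectin (FN1) and fibrillin-1 (FBN1) are structural: the first is assembled by cells into fibrils that carry integrin ligands, and the second forms the microfibrils on which elastic fibres are built. OLFML2B encodes a secreted protein with an olfactomedin domain, and PDGFRA is a receptor tyrosine kinase for platelet-derived growth factors that marks fibroblasts and mesenchymal progenitors.

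Values are normalized reads, that is, the reads counted on a gene divided by the size factor of the library. A library held between 724986 and 1226408 reads on genes, and 1 unannotated gene alone took between 1.49% and 49.4% of them. These are counted reads and not the sequencing depth. The study lists far more sequenced reads and aligned pairs per library, and the reason for the difference was not tested. The strand setting of the count is not given in the sources used here, so reads from a gene and from an overlapping gene on the other strand cannot be told apart. No transcript lengths were used, and therefore levels are compared between libraries for each gene and not between genes.

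The scaffold and untreated defects shared a pattern that divided the 6 genes. POSTN and OLFML2B were higher in each of the 6 defect libraries than in any healthy library, TNC was higher in 5 of the 6 defect libraries, and FN1, FBN1 and PDGFRA overlapped with healthy cartilage in both kinds of defect. Over all tested genes, the untreated libraries lay wholly above the healthy ones for 11.3%, and the CLCS libraries for 12.2%. The share with all 6 defect libraries above the healthy ones was not computed, and the genes were chosen with these differences known. Between CLCS treated and untreated defects, none of the 5 genes that could be tested passed the threshold. Fewer cells that make a transcript and less RNA per cell cannot be told apart in such bulk samples.

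**Figure D1:**
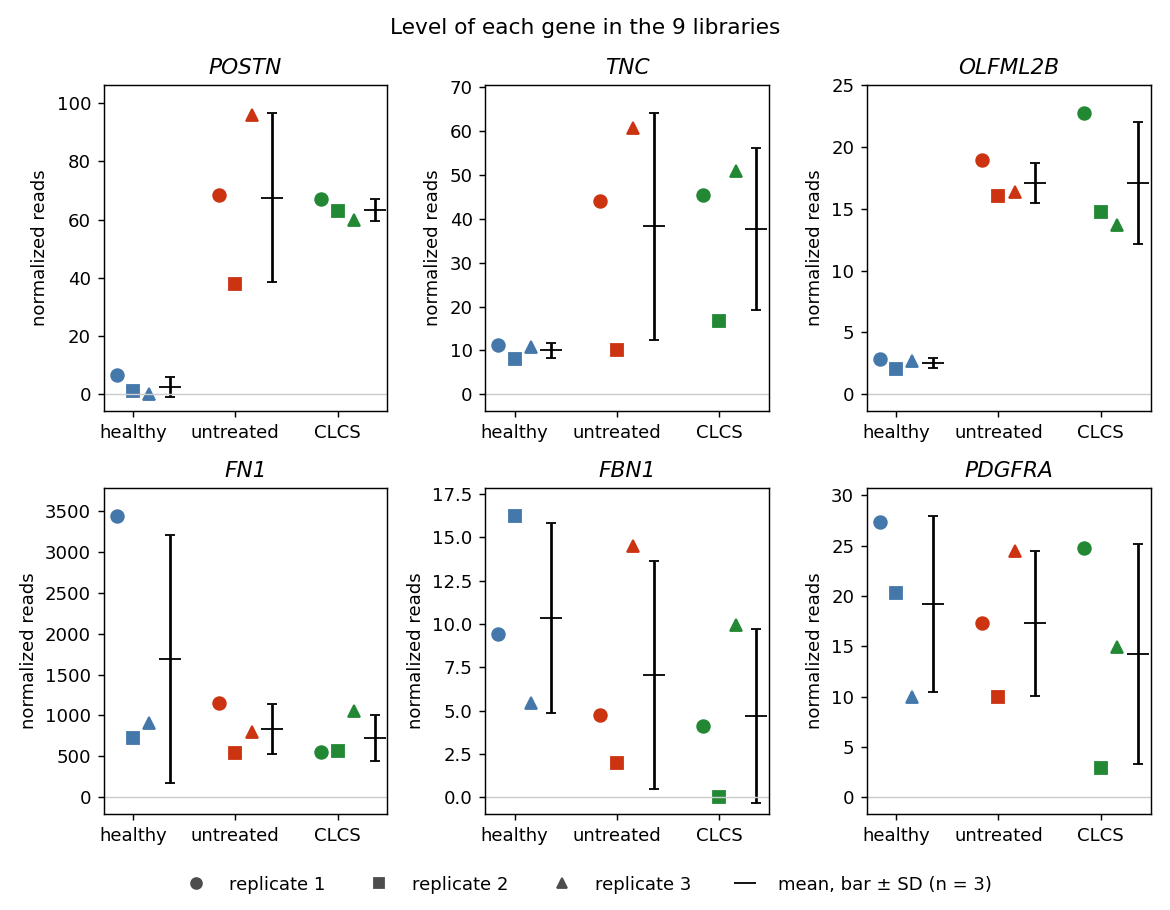
Normalized reads of the 6 genes (vertical axis of each panel, linear) in the 3 healthy, 3 untreated and 3 CLCS libraries; symbols mark the replicate number and black bars the mean ± SD of a group. POSTN lies at 6.60 or less in healthy cartilage and at 38.0 or more in the defects, while FN1, FBN1 and PDGFRA overlap between groups.

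POSTN was close to the limit of detection in healthy cartilage. Its normalized reads were 6.60, 1.01 and 0 in healthy replicates 1 to 3, from 7, 1 and 0 reads, and the count of 0 allows up to 2.71 (3 reads). Normalized reads of POSTN were 68.5, 38.0 and 96.1 in the untreated and 67.2, 63.0 and 59.8 in the CLCS libraries. The healthy and defect libraries did not overlap, and the lowest defect library, untreated replicate 2, stood well above the highest healthy one. The group means were 2.54 ± 3.55 (SD, n = 3) in the healthy, 67.5 ± 29.1 in the untreated and 63.3 ± 3.71 in the CLCS group.

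Against healthy cartilage the log2 fold change of POSTN, on the scale of log2(normalized reads + 1), was 4.69 (SE 0.74) in untreated and 4.69 (SE 0.67) in CLCS defects. Both comparisons share the healthy libraries. Since healthy cartilage had only 8 POSTN reads in all, the ratio of summed reads has a wide interval: 27.0 in untreated defects (95% counting interval 13.5 to 63.3) and 25.0 in CLCS defects (12.4 to 58.9). Such intervals, which are exact, cover counting error only. Healthy replicate 1 supplied 7 of the 8 reads, and without it the healthy mean of POSTN normalized reads fell to 0.507.

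TNC, by contrast, was read in all 9 libraries. Its normalized reads were 11.3, 8.12 and 10.8 in healthy cartilage. The spread of these samples (SD 1.72) was below the SD of 3.09 that counting alone gives at these read numbers. Normalized reads of TNC were 44.1, 10.002 and 60.7 in untreated and 45.5, 16.7 and 51.0 in CLCS defects. Replicate 2 was the low library of both defect groups. Untreated replicate 2 lay inside the healthy range, whereas all 3 CLCS libraries lay above it.

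Mean normalized reads of TNC were 10.1 ± 1.72 (SD, n = 3) in the healthy, 38.3 ± 25.9 in the untreated and 37.7 ± 18.4 in the CLCS group. The log2 fold change against healthy cartilage was 1.51 (SE 0.63) in untreated and 1.67 (SE 0.44) in CLCS defects. In untreated defects it was 1.02 without untreated replicate 3 and 2.26 without untreated replicate 2, and in CLCS defects it ran from 1.38 to 2.16 with 1 library left out. Counting error accounts for an SD of 5.77 normalized reads in the untreated group, and the libraries spread more widely than that.

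OLFML2B rested on few reads but was evenly spread. Normalized reads were 2.83, 2.03 and 2.71 in healthy cartilage, from 3, 2 and 3 reads. They were 18.9, 16.0 and 16.3 in untreated defects and 22.7, 14.8 and 13.7 in CLCS defects. No defect library overlapped with the healthy ones. The untreated libraries differed among themselves by less (SD 1.59) than counting alone gives at these read numbers (SD 3.90).

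The ratio of summed OLFML2B reads to those of healthy cartilage was 6.78 in untreated (95% counting interval 3.22 to 16.4) and 6.79 in CLCS defects (3.18 to 16.6). In the untreated comparison the log2 fold change was 2.36 (SE 0.27). In the CLCS comparison the gene did not pass the filter on low reads and was left out of the fit, which was run on genes with enough reads in the 6 libraries.

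FN1 was the gene of the 6 with the most reads in every library. Its normalized reads were 3436, 721 and 913 in the healthy, 1158, 540 and 802 in the untreated and 558, 560 and 1048 in the CLCS group. Healthy replicate 1 stood far above the other 8 libraries, which lay between 540 and 1158. With it the healthy mean was 1690 ± 1515 (SD, n = 3), and without it 817, close to the means of 834 ± 310 in untreated and 722 ± 283 in CLCS libraries.

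The log2 fold change of FN1 against healthy cartilage was -0.72 (SE 0.62) in untreated and -0.93 (SE 0.61) in CLCS defects. Leaving out healthy replicate 1 moved these to -0.03 and -0.23. The same healthy library also had the highest DCN (decorin, a proteoglycan that binds collagen fibrils) at 344 normalized reads, against 34.5 and 135 in the other healthy libraries, and the highest MYOC (myocilin, of the olfactomedin family) at 281 against 0 and 27.1. DCN and MYOC were singled out after the values were seen. Of the healthy libraries, this one also had the most SPARC and SPP1, which are matricellular genes, but the least COL3A1, a collagen gene of the fibroblast list. The part of such differences between samples in the FN1 level was not tested.

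FBN1 rested on few reads: 6 to 16 per healthy library, 2 to 16 per untreated library and 0 to 8 per CLCS library. The normalized reads were 9.42, 16.2 and 5.42 in the healthy, 4.73, 2.0004 and 14.5 in the untreated and 4.13, 0 and 9.96 in the CLCS group. The 0 of CLCS replicate 2 allows up to 2.95, and the groups overlapped in every pairing. Means were 10.4 ± 5.47 (SD, n = 3), 7.08 ± 6.58 and 4.70 ± 5.004, and single libraries set them: the untreated mean was 3.36 without replicate 3, and the CLCS mean was 2.07 without replicate 3 and 7.05 without replicate 2.

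In untreated against healthy samples the log2 fold change of FBN1 was -0.70 (SE 0.65). The CLCS comparisons did not include it, because of the filter on low reads. Its summed reads had a ratio to healthy cartilage of 0.701 (95% counting interval 0.395 to 1.23) in untreated and 0.424 (0.199 to 0.846) in CLCS defects, and these intervals leave out the spread between samples.

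PDGFRA was found in all 9 libraries, at 27.3, 20.3 and 9.94 normalized reads in the healthy, 17.3, 10.002 and 24.5 in the untreated and 24.8, 2.95 and 14.9 in the CLCS group. The groups overlapped throughout. Means were 19.2 ± 8.75 (SD, n = 3), 17.3 ± 7.24 and 14.2 ± 10.9, and the CLCS mean fell to 8.95 without replicate 1. Log2 fold changes against healthy cartilage were -0.12 (SE 0.47) in untreated and -0.67 (SE 0.70) in CLCS defects. Their signs turned when single libraries were left out, to 0.18 without healthy replicate 1 and 0.20 without untreated replicate 2, and to 0.11 in the CLCS comparison without CLCS replicate 2.

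**Figure D2:**
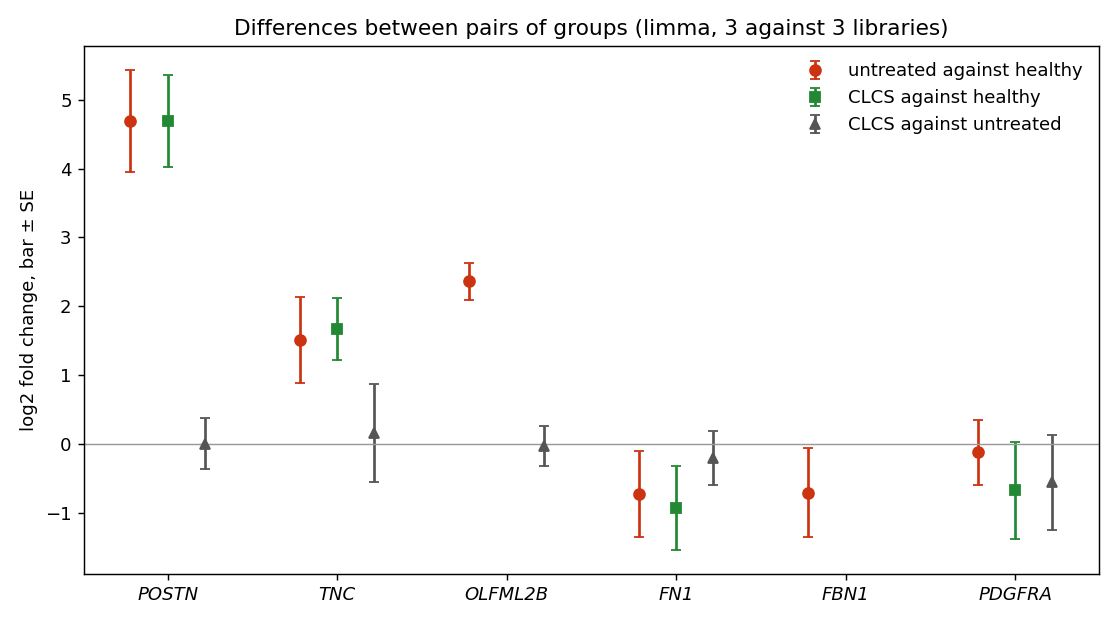
Log2 fold change of each gene (vertical axis) in the 3 comparisons, with bars for ± 1 SE of limma on 3 against 3 libraries; a gene without a marker did not pass the filter on low reads. POSTN lies at 4.69 in both defect groups against healthy cartilage, and the 5 genes tested between CLCS and untreated defects lie between -0.55 and 0.16.

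Across genes, limma called 89 of 3496 tested genes (2.55%) at an adjusted p under 0.05 in the untreated group against the healthy one, 1.34% of tested genes being higher. POSTN and OLFML2B were among the higher ones, as 2 of 6 genes. They were also the 2 called by edgeR, which called 2.49% of genes, and by DESeq2, which called 7.87%. For the CLCS group against the healthy one limma called 104 of 3294 (3.16%), and 2.13% were higher, with POSTN as the 1 called of the 4 genes tested. There edgeR called 3.73% of genes, with POSTN among them, and DESeq2 7.38%, with POSTN and TNC. All untreated libraries lay above all healthy ones for 11.3% of tested genes, including POSTN and OLFML2B, and all CLCS libraries for 12.2%, including POSTN and TNC. These calls of the 6 genes used the same contrasts as their choice, and the tools used the same reads. The calls are therefore a description, and agreement between the tools is no separate evidence. With 1 library left out, 2 to 7 genes of all those tested were called in untreated samples, including 1 of the 6 without healthy replicate 1 and 0 without any other library, and POSTN was not called in CLCS samples without CLCS replicate 1, 2 or 3. The log2 fold changes stayed large in these fits, at 4.03 to 5.50 for POSTN and 2.26 to 2.43 for OLFML2B in untreated and 4.04 to 5.50 for POSTN in CLCS samples.

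Whether the scaffold altered the level of these genes at 12 weeks was tested by comparing CLCS treated with untreated defects. Of 3275 genes tested, limma called 0 (0%) at an adjusted p under 0.05, while 95 had an unadjusted p under 0.05. The quasi-likelihood test of edgeR also called 0, with 88 at an unadjusted p under 0.05, and DESeq2 called 0, with 76. For 8.34% of tested genes the CLCS and untreated libraries were fully separated. They overlapped for all 6 genes described here, of which FBN1 was not among the tested genes. So few genes cannot show a departure from that share.

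The interval of the difference was narrowest for OLFML2B and POSTN. OLFML2B had a log2 fold change of -0.03 in CLCS against untreated defects (95% interval -0.70 to 0.64; limma, adjusted p = 0.9999), which spans folds of 0.616 to 1.56. POSTN had a log2 fold change of 0.0029 (-0.86 to 0.86; limma, adjusted p = 0.9999), or folds of 0.553 to 1.82.

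The intervals of the other genes were wider. FN1 had a log2 fold change of -0.20 between CLCS and untreated defects (95% interval -1.13 to 0.72; limma, adjusted p = 0.996). TNC had one of 0.16 (-1.49 to 1.82; limma, adjusted p = 0.996), which includes a fold of 3.52. PDGFRA had the lowest estimate of the 5, -0.55 (-2.17 to 1.06; limma, adjusted p = 0.996), and its interval reaches down to a fold of 0.223. FBN1 could be fitted only with no filter on low reads, where its log2 fold change was -0.75 (-2.64 to 1.15; limma, adjusted p = 0.905).

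The spread within the defect groups was itself uneven. The 3 CLCS libraries of POSTN differed by an SD of 3.71 normalized reads, below the SD of 8.28 that counting alone gives, and the untreated libraries by an SD of 29.1 against 7.73 from counting. Whether the spreads of the groups differ was not tested. In the untreated group all 6 genes were lowest in replicate 2, which was the lowest untreated library for 29.9% of 3812 genes. This feature was singled out after the values were seen. In the CLCS group, replicate 2 was the lowest for TNC, FBN1 and PDGFRA, and for 33.7% of the 3812 genes.

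CLCS and untreated libraries of the same number tended to deviate from their group means together across genes, with correlations of 0.25, 0.33 and 0.30, and a fit with the replicate number as a block narrowed the interval of TNC most. With the block the log2 fold change of TNC remained 0.16 and its 95% interval was -0.55 to 0.88, and that of PDGFRA was -1.61 to 0.51. No gene of the 6 was called between these groups with the block. By number, the CLCS library had more POSTN than the untreated one in replicate 2 (log2 difference 0.71), less in replicate 3 (-0.68) and nearly as much in replicate 1 (-0.03).

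The genes whose profiles over the 9 libraries lay closest to each of the 6 were found from the root mean square difference of their centred log2 values, among 3118 genes with a symbol. This measure is a description, and the libraries share depth and composition. For POSTN the nearest were COL1A1 at 0.445 and COL1A2 at 0.613, the genes of both chains of type I collagen, and METTL7B at 0.907, against a median of 2.40 over all genes. COL1A1 had 126 ± 109 normalized reads (SD, n = 3) in the healthy, 1421 ± 575 in the untreated and 1529 ± 457 in the CLCS group, with the same low library among the untreated ones as POSTN.

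TNC had as its nearest genes CNTROB at 0.306, ADAMTS2 at 0.396 and C1S at 0.434, with a median over all genes of 1.19. ADAMTS2, the protease that removes the amino-terminal propeptide of fibrillar procollagens, shared the low level in replicate 2 of both defect groups, with 3.0 normalized reads in that untreated library and 5.9 in that CLCS library. OLFML2B lay nearest to TTLL5 at 0.276, SCRN3 at 0.289 and EIF2AK4 at 0.315 (median 1.22), which were all higher in every defect library than in any healthy one. FN1 lay nearest to DMGDH at 0.359, LUC7L3 at 0.394 and STRA6 at 0.419 (median 0.938), which shared its high value in healthy replicate 1.

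FBN1 had PDGFRA among its nearest genes, but FBN1 was not among the nearest genes of PDGFRA. PDGFRA was the second nearest gene to FBN1 at 0.684, after HSPA5 at 0.642 and before CEBPB at 0.706 (median 1.33). FBN1 and PDGFRA fell to their lowest level of the 9 libraries in CLCS replicate 2, with 0 and 3 reads. PDGFRA itself lay nearest to MRPS7 at 0.365, HDAC1 at 0.429 and CHMP4B at 0.468 (median 0.998), which are genes with few reads. Among the 6 genes, the profiles of POSTN and FBN1 were the farthest apart, at 2.95.

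**Figure D3:**
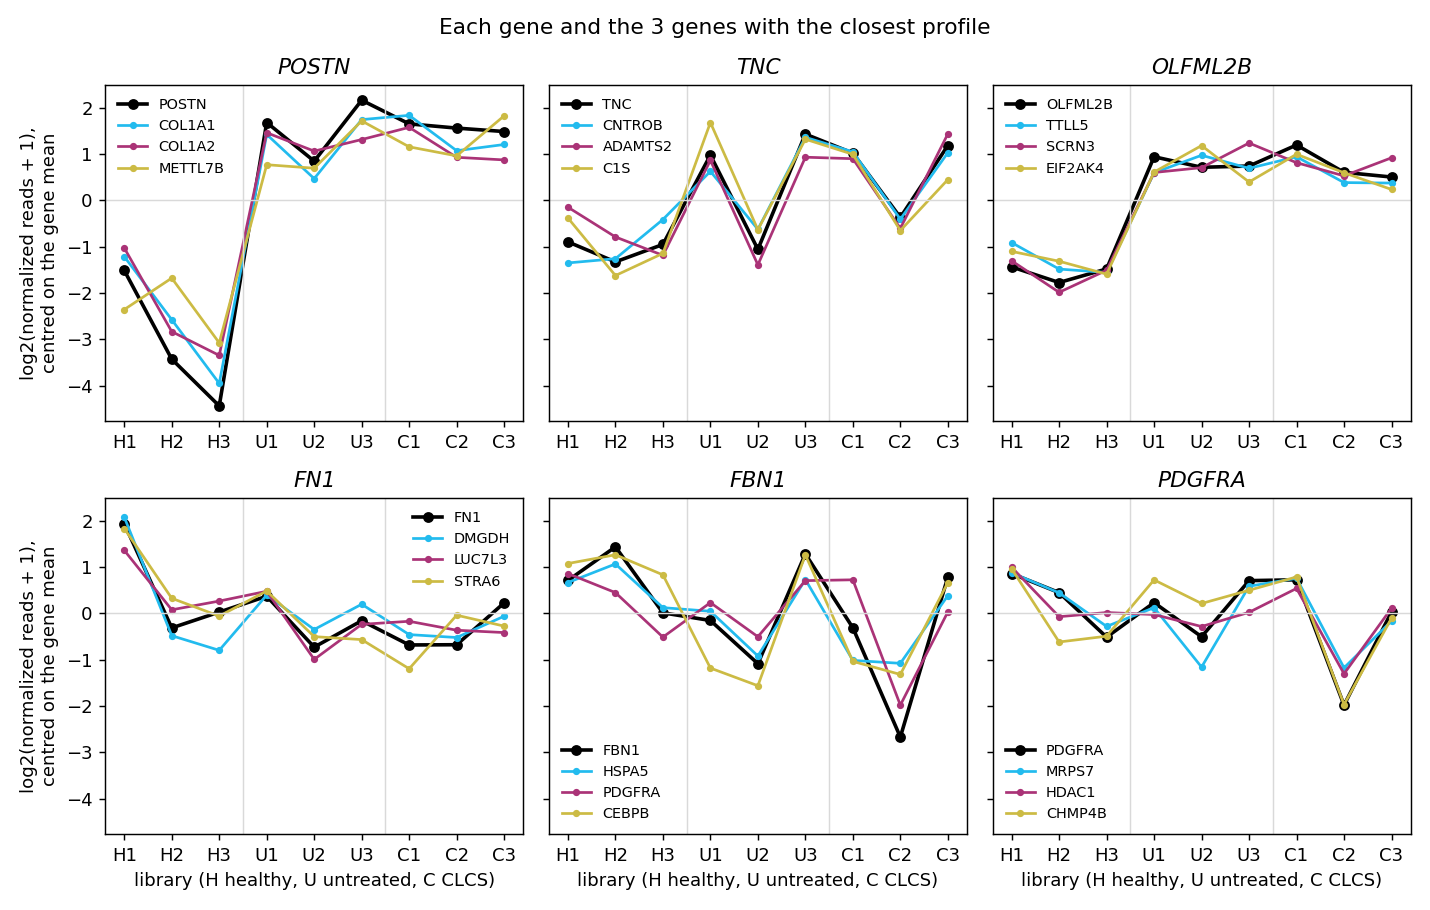
Profile of each of the 6 genes (black) and of the 3 genes nearest to it (colours) over the 9 libraries, as log2(normalized reads + 1) centred on the mean of the gene; H, U and C stand for healthy, untreated and CLCS with the replicate number. POSTN follows COL1A1 and COL1A2, and FBN1 and PDGFRA share their minimum in C2.

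Of a list of 20 other matricellular genes, without POSTN and TNC, 17 were analysed and 11 tested in untreated against healthy samples, where 9 had a log2 fold change below 0 and the median was -0.92, against -0.02 over all tested genes. Limma and edgeR called 0 of them, and 6 had an unadjusted p under 0.05, against 582 of all 3496 tested genes. DESeq2, which called 7.87% of all tested genes, called 4 of the list, THBS1, THBS4, CCN2 and SMOC2, all lower. In the same comparison all 9 tested chondrocyte markers had a log2 fold change below 0, with a median of -1.19, and their part in the values of the matricellular list was not tested. Thrombospondin-1 (THBS1), which binds and activates latent TGF-beta, had 122, 65.97 and 43.4 normalized reads in healthy and 36.2, 24.0 and 14.5 in untreated samples. CCN2, connective tissue growth factor, had means of 226 ± 112 (SD, n = 3) and 65.97 ± 32.0 in the same groups. These 4 genes were named after their values were seen.

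In CLCS against healthy samples, 10 genes of the matricellular list were tested, with a median log2 fold change of -0.43 against -0.08 over all genes. Limma, edgeR and DESeq2 called 0, and the unadjusted p was under 0.05 for 4, against 576 of all 3294 tested genes. When CLCS and untreated defects were compared, 10 of 11 had a log2 fold change above 0, with a median of 0.51 against -0.0041 over all genes. None was called by the 3 tools, and 1 had an unadjusted p under 0.05. The median of the chondrocyte markers was 0.97 there. The medians of the matricellular list kept their signs under the TMM normalization of edgeR, at -0.81, -0.40 and 0.52. SPARC (osteonectin, a collagen-binding protein of bone and cartilage) and SPP1 (osteopontin) had the most reads of the list. The log2 fold change of SPARC against healthy cartilage was -0.33 (SE 0.58) in untreated and 0.15 (SE 0.45) in CLCS defects, while that of SPP1 was 2.02 (SE 0.69) and 1.93 (SE 0.71).

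The partners of the structural genes and of the receptor passed no test. Of 19 genes of microfibrils and elastic fibres, 12 were analysed and at most 4 tested in a comparison; of 12 fibronectin receptors and crosslinking enzymes, 9 were analysed and 3 tested. For the platelet-derived growth factors and their receptors 6 of 7 were analysed and at most 3 tested, for the olfactomedin family 5 of 9 and 1, and for the TGF-beta pathway 12 of 13 and 2. Limma, edgeR and DESeq2 called 0 genes of these 5 lists in any comparison, and 1 gene had an unadjusted p under 0.05, PDGFRL in untreated against healthy samples. In that comparison 582 of all 3496 tested genes had such a p.

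PDGFRL, a secreted protein resembling the receptor, had 8.48, 7.10 and 0.903 normalized reads in healthy and 13.4, 18.0 and 20.9 in untreated samples. PDGFC, a ligand of PDGFRA, had means of 41.7 ± 13.2 (SD, n = 3) in the healthy, 45.2 ± 12.4 in the untreated and 45.5 ± 23.2 in the CLCS group. ITGA5, the alpha chain of the main fibronectin receptor, had 41.7 ± 8.002, 41.7 ± 2.31 and 40.0 ± 11.9, and SDC2, a syndecan, 39.8 ± 34.1, 28.1 ± 14.8 and 34.7 ± 5.32. LOX and LOXL2 (lysyl oxidases, which crosslink collagen and elastin), OLFM2 and TGFB3 overlapped between all groups.

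**Figure D4:**
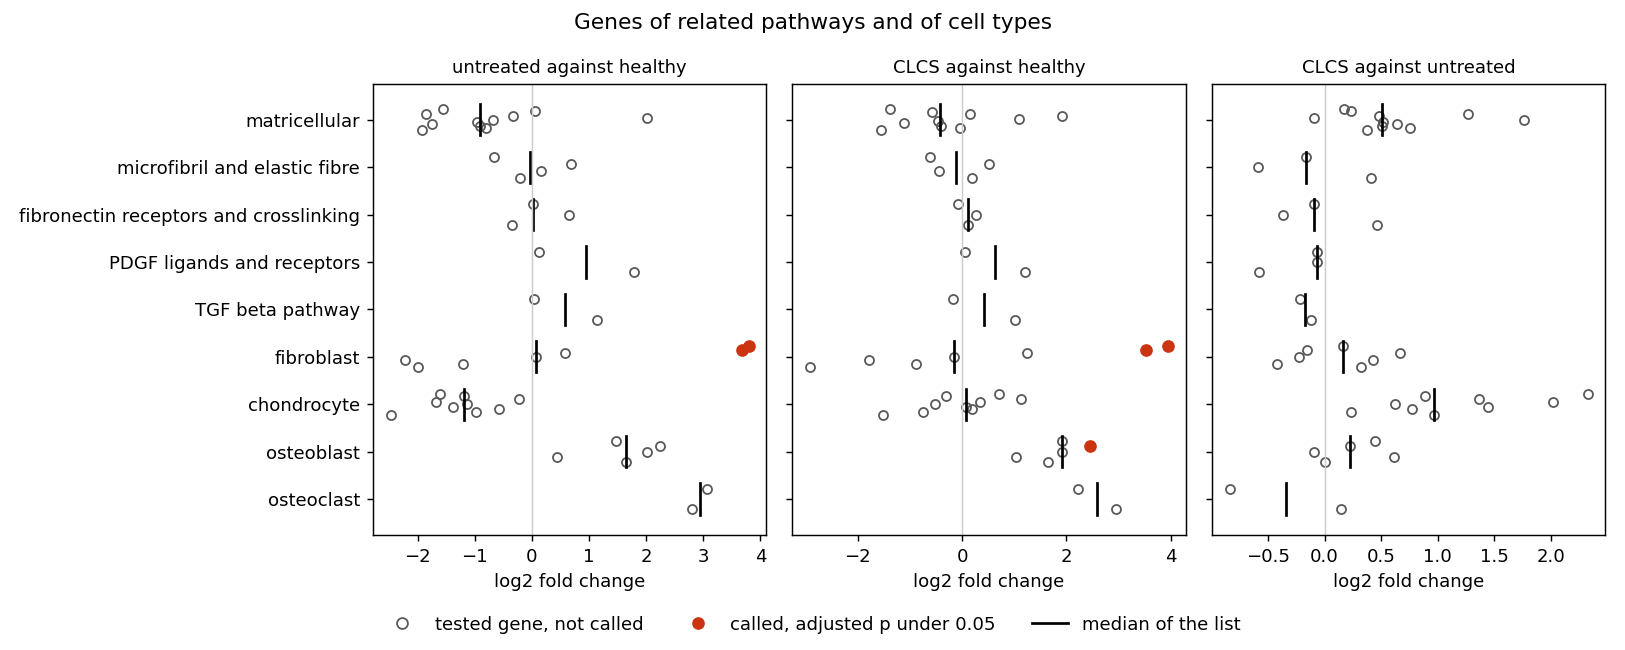
Log2 fold change (horizontal axis, one scale per panel) of the tested genes of 9 gene lists in the 3 comparisons; open circles were not called, filled circles were called by limma at an adjusted p under 0.05, and black bars are the medians. The median of the matricellular list lies at -0.92 in untreated against healthy samples, and the called genes are COL1A1, COL1A2 and, in CLCS samples, IBSP.

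Markers of cell types were examined in the same libraries. Counts of markers at an unadjusted p under 0.05 stand against 582 of all 3496 tested genes in untreated against healthy samples. For CLCS against healthy samples it was 576 of 3294, and for CLCS against untreated samples 95 of 3275. Of 15 fibroblast markers, 13 were analysed and 7 tested, and limma called 2 in each comparison with healthy cartilage. COL1A1 rose by a log2 fold change of 3.79 in untreated (SE 0.70; limma, adjusted p = 0.0398) and 3.95 in CLCS defects (SE 0.65; limma, adjusted p = 0.0277). COL1A2 rose by 3.68 (SE 0.59; limma, adjusted p = 0.0292) and 3.53 (SE 0.59; limma, adjusted p = 0.0288). With single libraries left out, the log2 fold change of COL1A1 ran from 3.11 to 4.48 in untreated and from 3.27 to 4.64 in CLCS defects, but its call was lost without any 1 library in the former and without any but healthy replicate 1 in the latter. The calls of COL1A2 were likewise lost without any library but healthy replicate 1. With edgeR the adjusted p of COL1A1 in untreated defects was 0.0548. The median log2 fold change of the 7 was 0.06 and -0.16, and 4 of 7 lay above 0 in untreated and 3 of 7 in CLCS defects. DESeq2 also called DCN in both comparisons and PDPN in CLCS samples, both lower. COL3A1 had 226, 303 and 389 normalized reads in healthy samples, 618, 79.0 and 1831 in untreated and 508, 399 and 1798 in CLCS samples, and COL5A2 overlapped between all groups.

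Type I collagen is made by fibroblasts and also by osteoblasts, and bone markers were among the genes examined. All 5 tested osteoblast markers had a log2 fold change above 0 in both comparisons with healthy cartilage, with medians of 1.65 and 1.92. IBSP (bone sialoprotein) was called in CLCS samples (log2 fold change 2.46, SE 0.40; limma, adjusted p = 0.0277), a call lost without healthy replicate 3 or any 1 CLCS library (adjusted p up to 0.119). In untreated samples limma and edgeR called 0 osteoblast genes and DESeq2 called IBSP, with 3 at an unadjusted p under 0.05. The summed level of the osteoblast list ran from 309.5 to 920.5 normalized reads in healthy, 986 to 2997 in untreated and 1865 to 2436 in CLCS libraries. The summed osteoclast list ran from 5.42 to 34.9, from 69.8 to 165 and from 43.6 to 172, and both tested genes, CTSK and MMP9, had a log2 fold change of at least 2.23 in both comparisons with healthy cartilage, with an unadjusted p under 0.05 and 0 called by limma and edgeR. DESeq2 called both in untreated and MMP9 in CLCS samples. The summed fibroblast list ran from 798 to 1498, from 1783 to 5243 and from 2540 to 4176. A few genes weigh most in such sums, which therefore do not measure a whole cell type. Over all libraries COL1A1 had 9550 reads, COL3A1 6195 and COL1A2 5666, the most of the fibroblast list. IBSP had 11006, the most of the osteoblast list, followed by SPP1 with 2229. The part of these cell types in the level of POSTN, TNC and OLFML2B was not tested.

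Chondrocyte markers were present in all libraries, and untreated replicate 3 stood apart. It had 458 normalized reads of COL2A1, the cartilage collagen, against 4062 or more in each of the other libraries, and it was the untreated library with the most POSTN, TNC, FBN1 and PDGFRA. Without it the untreated means of normalized reads were 53.3 for POSTN and 27.1 for TNC. In untreated against healthy samples all 9 tested chondrocyte markers had a log2 fold change below 0 (median -1.19), of which limma and edgeR called 0 and DESeq2 called 1, CYTL1, and 4 had an unadjusted p under 0.05. In CLCS samples the median was 0.07 against healthy cartilage and 0.97 against untreated defects, with 0 called by limma and edgeR in either, 1 at an unadjusted p under 0.05 in each, and CYTL1 called by DESeq2 in the former.

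Other cell types left few reads. The summed level of 6 endothelial markers was at most 14.5 normalized reads in any library, with 2 of them at 0 in all healthy libraries, that of the erythroid list at most 3.94, and that of the synovium and tendon list at most 10.8. The smooth muscle actin gene ACTA2, the defining marker of myofibroblasts, had 3 reads in all 9 libraries together. TPM2, the gene of that list with the most reads, had a log2 fold change against healthy cartilage of -1.22 for untreated defects and -1.50 for CLCS defects, and DESeq2 called it in the latter. Macrophage markers summed to between 23.5 and 33.9 in healthy, 40.0 and 55.3 in untreated and 23.7 and 48.6 in CLCS libraries, and lymphocyte markers to between 33.9 and 56.0, 15.4 and 30.0, and 26.1 and 27.9. Skeletal muscle markers summed to between 24.5 and 41.6, 12.7 and 19.0, and 14.8 and 27.4. Limma, edgeR and DESeq2 called 0 genes of the macrophage, lymphocyte and muscle lists in any comparison, and 1 macrophage and 1 lymphocyte gene had an unadjusted p under 0.05, in untreated against healthy samples.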

How the data were processed

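Each deposited value is a signal, a gene's count over the size factor of its library. To make it, the authors prepared TruSeq libraries from polyA RNA, mapped the reads with TopHat and Bowtie (genome oryCun2.0), kept unique alignments, counted these by gene in eXpress and normalized in DESeq2. Tool versions, annotation release and strand setting are not given in the sources used here. The mitochondrial gene ND6, on the other strand than its neighbours, held 86.0% to 94.4% of the reads on 13 mitochondrial protein genes. Each value is a whole multiple of 1 read (tolerance 0.01), and 100% of values gave whole reads. The 3 healthy libraries occur in both tables with identical values and entered once. The columns of the authors' comparisons (fold changes, p-values) were not used.

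The design assumed counts and named limma for normalized values. Groups were therefore compared in pairs with limma 3.58.1 (R 4.3.3) on log2(value + 1), on genes kept by filterByExpr of edgeR 4.0.16, with Benjamini-Hochberg adjustment over all tested genes and calls at an adjusted p under 0.05. An exact permutation test of 3 against 3 samples cannot give less than 0.1. On the recovered reads edgeR's quasi-likelihood test called 87, 123 and 0 genes (untreated against healthy, CLCS against healthy, CLCS against untreated), and DESeq2 1.42.0 called 275, 243 and 0. Alternatives were other pseudocounts (0.5 and 5), no filter, TMM, a replicate block, all 9 libraries in 1 fit and each library left out. The pipeline was tested on simulated data.

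Deviations from the group mean of same-numbered libraries correlated at 0.25, 0.33 and 0.30 for CLCS with untreated, 0.28, 0.14 and 0.19 for CLCS with healthy and 0.29, 0.13 and -0.04 for untreated with healthy samples (3812 genes). All were over 0.1 in the first and second of these pairings. The main fits nevertheless left the replicate number out in every comparison. Only the replicate block, run as an alternative, took the numbers as pairs.

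The 6 genes and the 17 gene lists (6 of pathways, 11 of cell types) were chosen with earlier results of these data known. Named beside the 6 were the 3 nearest profiles of each, called genes of a pathway list (at most 4) or else the 2 with the most reads, and up to 4 genes of a cell type list with the most reads. A gene that this rule names is not reported here. With 3 samples per group and 724986 to 1226408 reads on genes per library, genes of few reads carry the counting errors given beside them.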

Additional observations from a re-analysis of the deposited data

How the results depend on the processing

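In CLCS against untreated defects 0 genes and 0 of the 6 genes were called under every alternative run. With log2 fold changes near 0, the signs there were not stable: POSTN was at -0.093 with edgeR, -0.087 with DESeq2 and -0.0031 with a pseudocount of 5, TNC at -0.041 and -0.025 and OLFML2B at 0.0036 and 0.014 with edgeR and DESeq2. Leaving out 1 library gave -0.36 to 0.30 for POSTN, -0.59 to 0.65 for TNC, -0.24 to 0.10 for OLFML2B, -0.51 to 0.066 for FN1 and -1.12 to 0.23 for PDGFRA. Against healthy cartilage, POSTN was at 3.28 with a pseudocount of 5 and at 5.18 (untreated) and 5.19 (CLCS) with 0.5, and OLFML2B in untreated samples ran from 1.55 (pseudocount 5) to 2.76 (DESeq2). TNC in untreated samples was at 1.94 with edgeR and 1.95 with DESeq2, and 1.28 with a pseudocount of 5. With 1 library left out PDGFRA ran from -0.51 to 0.20 in untreated and from -1.24 to 0.11 in CLCS samples.

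For untreated defects against healthy cartilage, 275 genes were called with DESeq2, 20 with no filter on low reads, 173 with all 9 libraries in 1 fit and 2 to 7 with 1 library left out. Of the 6 genes, 1 was called with no filter and 0 to 1 with 1 library left out. In CLCS against healthy samples 243 genes were called with DESeq2, 13 with no filter and 0 to 81 with 1 library left out, and of the 6 genes 2 with DESeq2 (POSTN and TNC) and 0 to 1 with 1 library left out. Of the list genes, limma called 2 in untreated samples, edgeR 1 and DESeq2 11, and limma called 3 in CLCS samples and DESeq2 9. A pseudocount of 5 kept 10 of the 18 nearest profiles. The causes were not tested. The replicate block called 94, 125 and 0 genes (untreated against healthy, CLCS against healthy, CLCS against untreated) and changed no call of the 6 genes. Few counted reads limit FBN1, OLFML2B, POSTN and TNC in healthy cartilage, at 16 reads or fewer per library.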
